A study of Mus musculus with 8 samples.

Results

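The 35 genes described here are transcriptional targets of the tumour suppressor p53 and genes of cell-cycle arrest, in cells taken from the calvaria, the bony roof of the mouse skull. They were chosen as the rows of the count table that carry a listed gene symbol, and all 35 were among its 25239 symbols. The libraries labelled KO came from mice in which Sphk2, the gene of sphingosine kinase 2, is described as knocked out under Osx (osterix), with no Cre line named. Osterix, the product of Sp7, directs commitment to the osteoblast fate, so a deletion that follows it is meant for cells of that lineage and not for other cells of the sample. The control libraries came from wild-type (WT) littermates. Both groups are labelled as primary osteoblasts, and each has 4 libraries numbered 1 to 4. Age, sex, the number of animals behind a library and the conditions of culture are not given in the sources used here. The error behind each p-value is therefore the scatter of single libraries, part of which may be technical.

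p53 is a DNA-binding factor that cells stabilise after DNA damage, oncogene activation or nutrient stress, and that Mdm2, itself a p53 target, marks for destruction. Active p53 raises the transcription of inhibitors of cyclin-dependent kinases (CDKs), of stress-response and repair genes and of genes that open the mitochondrial and death-receptor routes to apoptosis. A separate group of CDK inhibitors, the INK4 proteins, holds the retinoblastoma protein active and blocks entry into S phase with or without p53. In the osteoblast lineage p53 is known as a brake on proliferation and differentiation.

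Total counts per library were 14347495 to 17928713 in the libraries labelled KO and 14571389 to 19065421 in the controls. Levels are given as CPM, the read count of a gene scaled by a common factor to the size of its library. Sphk2 did not check the labels: it had 69.7, 72.3, 72.1 and 131 CPM in the libraries labelled KO 1 to 4, against 75.8, 64.2, 82.5 and 134 CPM in controls 1 to 4, and the deleted stretch is not stated in the labels. The osteoblast label was met only in part. Transcripts of 12 macrophage markers summed to 29450 to 50064.5 CPM in the libraries labelled KO and to 29680 to 39276 CPM in the controls. The 12 osteoblast markers summed to 4157 to 15700 CPM in the libraries labelled KO and to 6432 to 16881 CPM in the controls. Most of each sum came from Col1a1, Col1a2, Sparc and Spp1. Osteocalcin (Bglap) had 42.3 CPM in KO 1 and at most 0.582 CPM elsewhere. Ibsp had 1082 CPM in KO 1 and 0.656 to 49.2 CPM elsewhere. Alpl had 83.6 CPM in KO 1 and 1.46 to 30.6 CPM elsewhere, and Bglap2, Dmp1 and Phex were also highest in KO 1. Runx2, Sp7, Col1a1, Col1a2 and Sparc were highest in control 2, and Spp1 in control 4. Both libraries numbered 4 stood apart, with 6748 (KO) and 10222 (control) CPM of 10 osteoclast markers, where KO 1 to 3 had 176 to 189 CPM and controls 1 to 3 had 172 to 278 CPM. Results are therefore also given for numbers 1 to 3 alone. In such bulk samples fewer cells of a type and less RNA per cell cannot be told apart.

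p53 is known to bind DNA at an element made of a pair of half-sites, each with a fixed C and G core. RefSeq windows of GRCm38.p6 were at hand for 27 of the 35 genes, and the 250 bases before each transcription start were searched for the p53 consensus site with at most 3 mismatches and 0 or 1 bases between the half-sites. The element is palindromic, so both strands were read at the same time. Such a match stood before 8 of the 27 genes (Aen, Bax, Bbc3, Ccng1, Cdkn1a, Cdkn1b, Sesn1 and Trp53), in 21.6% of the 37 windows of these genes and in 2.28% of all 32851 windows. With at most 2 mismatches it stood before Bax, Ccng1 and Cdkn1a, and in 0.551% of all windows. The 4 stretches below set a pair of genes that rose in numbers 1 to 3 (Ccng1 and Sesn1) beside Cdkn1a and Bax. Cdkn1a and Bax did not pass the unpaired test there. With the libraries of numbers 1 to 3 paired by number Cdkn1a did pass (adjusted p = 0.0474 in edgeR's test) and Bax did not. With all 8 libraries paired by number neither passed. The log2 fold changes were then −0.04 for Cdkn1a and −0.15 for Bax (adjusted p = 0.939 and 0.319 in edgeR's test). Each stretch reads 5′ to 3′ on the gene's own strand, with the matched element in capitals.
Cdkn1a: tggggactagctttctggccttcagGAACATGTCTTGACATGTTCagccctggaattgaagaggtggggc
Ccng1: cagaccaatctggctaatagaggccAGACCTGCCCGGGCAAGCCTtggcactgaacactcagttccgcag
Bax: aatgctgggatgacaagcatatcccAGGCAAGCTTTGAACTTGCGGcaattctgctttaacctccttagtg
Sesn1: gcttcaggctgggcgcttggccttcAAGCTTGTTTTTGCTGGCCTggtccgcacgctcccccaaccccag
The Cdkn1a stretch, chr17:29090903-29090972 on the plus strand, has 1 mismatch to the consensus, and its element begins 51 bases before 1 of the gene's annotated starts and 2841 bases before the other. The Ccng1 stretch, chr11:40755437-40755506 on the minus strand, also has 1 mismatch, 195 bases before the start. The Bax stretch, chr7:45467054-45467124 on the minus strand, has 2 mismatches and a spacer of 1 base, 201 bases before the start. The Sesn1 stretch, chr10:41887241-41887310 on the plus strand, has 3 mismatches and lies inside the gene, 173 bases before its second start. These matches are descriptions of the letters, and binding by p53 was not measured.

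Across all 8 libraries none of the genes tested passed the threshold between libraries labelled KO and controls, although 24 of 34 had positive log2 fold changes. Of the 35 genes, 34 had enough counts to test, and Perp, a membrane protein of p53-dependent death, had only 0 to 6 counts per library. In edgeR's quasi-likelihood test 0 of 34 passed an adjusted p of 0.05, where the background over 12837 genes was 0%. At an unadjusted p under 0.05 there were 6, all higher in the libraries labelled KO (Cdkn2c, Sesn1, Tnfrsf10b, Gdf15, Sesn3 and Pidd1). At that level 4.92% of all genes were found, and 3.19% were higher. DESeq2 called 1 gene, Cdkn2c, higher, where it called 1.45% of all genes and 1.05% higher. In limma-voom 0 passed, against 0% of all genes, and 6 had an unadjusted p under 0.05, against 5.23%. The 24 positive values make up 70.6%, against 46.7% of all genes, and the median log2 fold change was 0.14, against −0.02 over all genes. With the library number as a block, 2 of 34 rose (5.88%, against 1.31% of all genes), Sesn1 and Tnfrsf10b, and 0 fell (against 1.18%), where 2.49% of all genes were called. Without pair 1, 2 or 3 this model called 0 of all genes, and the adjusted p was 0.21 to 0.337 for Sesn1 and 0.192 to 0.337 for Tnfrsf10b. Positive values numbered 24 of 34 there too, against 48.8% of all genes.

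In the libraries numbered 1 to 3 alone, 12 of the 34 genes rose and 2 fell in the libraries labelled KO. The background there was high: 14.1% of 12919 genes were called, 7.78% higher and 6.29% lower, against 41.2% of these genes. Those that rose were the CDK inhibitors Cdkn2a, Cdkn2b and Cdkn2c, the arrest and stress genes Ccng1, Trp53inp1, Gdf15, Sesn1, Sesn3 and Zmat3, and the cell-death genes Tnfrsf10b, Eda2r and Pidd1. Those that fell were Btg2 and Plk3, an antiproliferative gene and a stress kinase. The log2 fold change was positive in 23 of 34 (67.6%), against 49.1% of all genes, and its median was 0.21, against 0.00 over all genes. With the number also as a block, 16 rose and 2 fell, where 24.2% of all genes were called, 12.3% higher and 11.9% lower. Adjusted p-values of the 14 genes called in numbers 1 to 3 were 0.000969 to 0.0328 there, and at least 0.471 in the same unblocked edgeR model of all 8 libraries.

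**Figure D1:**
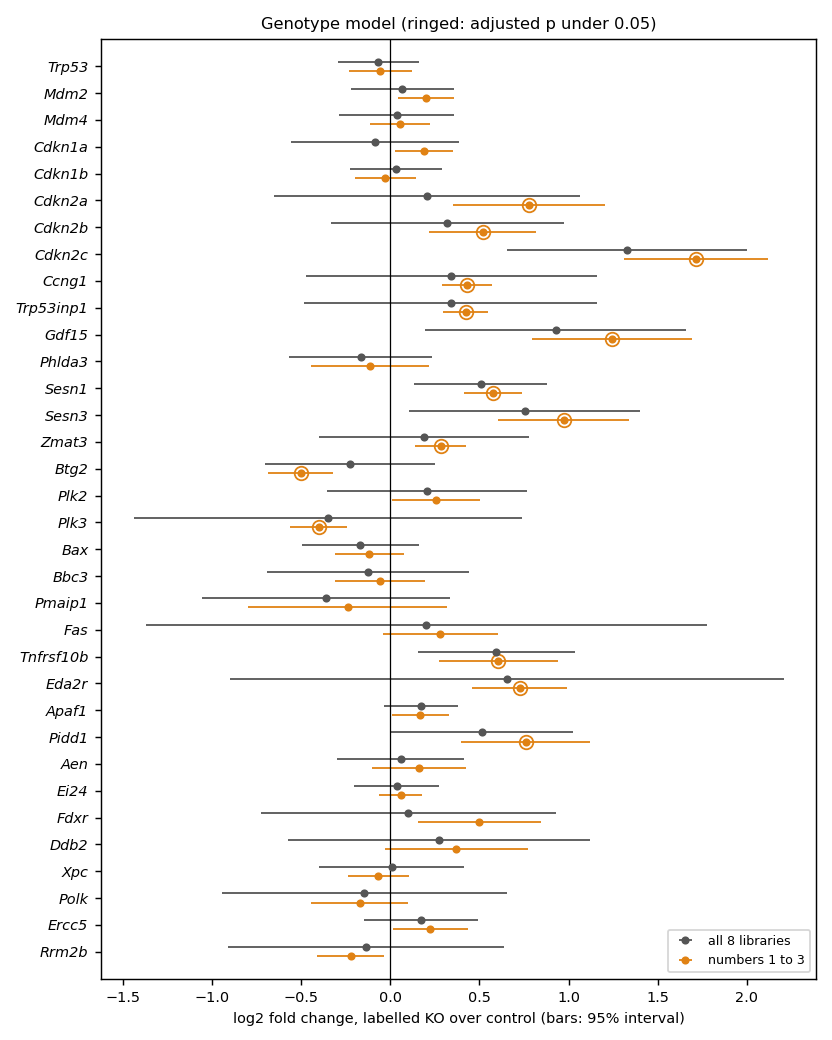
Log2 fold change of each of the 34 genes tested (x axis, labelled KO over control), from the genotype model of all 8 libraries (grey) and of numbers 1 to 3 (orange). Bars are 95% intervals and rings mark an adjusted p under 0.05, which 14 genes reached in numbers 1 to 3 and none reached with all 8 libraries.

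The difference was carried by pairs 1 to 3. Each library labelled KO was set against the control of its own number on the log2 CPM scale, and the median over the 34 genes was 0.18, 0.28 and 0.11 in pairs 1, 2 and 3, but −0.11 in pair 4. The genes higher in the library labelled KO numbered 23, 25, 22 and 13 of 34 in pairs 1 to 4. The median over all genes tested was 0.00, 0.00, −0.01 and 0.01. In every pair 7 genes were higher in the library labelled KO (Cdkn2c, Sesn1, Fas, Tnfrsf10b, Ddb2, Ercc5 and Apaf1), which is 20.6%, against 15.4% of all genes. Only Phlda3 and Pmaip1 were lower in every pair, 5.88% against 13.4% of all genes.

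**Figure D2:**
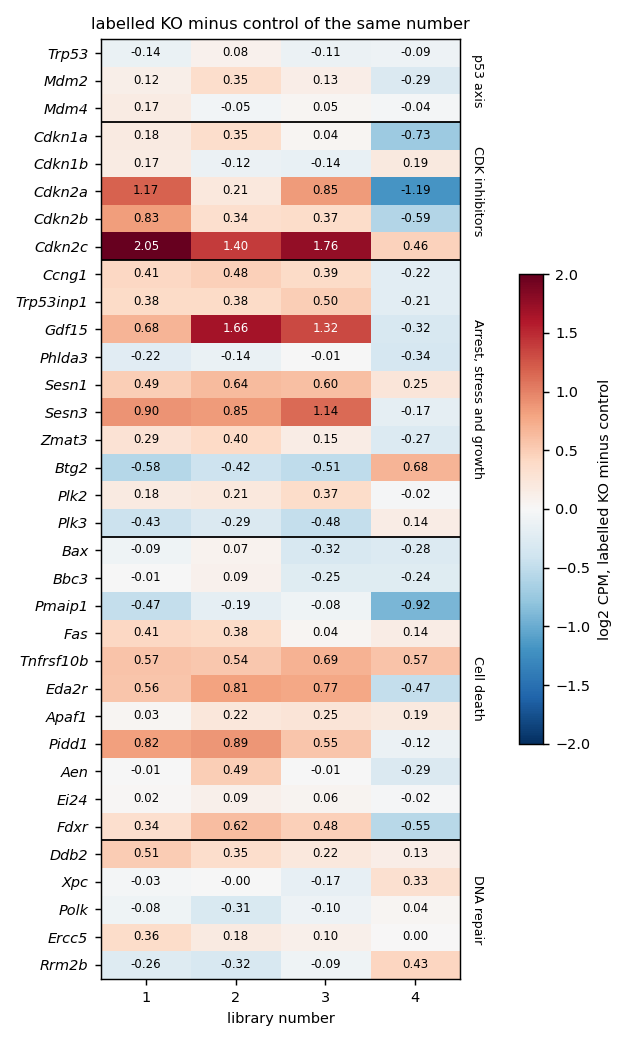
Difference in log2 CPM between the library labelled KO and the control of the same number (columns, numbers 1 to 4) for the 34 genes tested, grouped by role. Red is higher and blue lower in the library labelled KO, and Cdkn2c is red throughout with 2.05, 1.40, 1.76 and 0.46.

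p53 itself and its main regulators did not pass the test with all libraries. Trp53, which encodes p53, had 74.3, 81.4, 84.5 and 82.5 CPM in KO 1 to 4, against 81.7, 77.0, 91.4 and 88.1 CPM in controls 1 to 4. The groups overlapped and no library stood out. The log2 fold change was −0.07 with an interval of −0.29 to 0.16, and p was 0.343 in an exact permutation test, two-sided like those that follow, which with 4 against 4 libraries cannot go below 0.0286. Mdm2, the ubiquitin ligase that marks p53 for degradation, had 141, 142, 139 and 129 CPM in KO 1 to 4, against 129.7, 111, 127 and 158 CPM in controls 1 to 4. Control 4 was the highest of all 8, and in numbers 1 to 3 every library labelled KO lay above every control. Its log2 fold change was 0.07 (SE 0.13) with all libraries. It was 0.20 in numbers 1 to 3 (SE 0.07, adjusted p = 0.0945), and the block there brought the adjusted p to 0.0344, in a range of 0.0344 to 1 over the alternatives. Mdm4, which binds p53 and blocks its activation domain, had 83.5 to 118 CPM in the libraries labelled KO and 85.9 to 112 CPM in the controls, with a log2 fold change of 0.04 (SE 0.14).

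Among the 5 CDK inhibitors the INK4 gene Cdkn2c had the largest log2 fold change. Cdkn2c, at bases 109660876 to 109667189 of chromosome 4 (GRCm38, minus strand), encodes p18, which binds CDK4 and CDK6. It had 45.2, 48.9, 47.4 and 40.2 CPM in KO 1 to 4, against 10.8, 18.5, 13.9 and 29.2 CPM in controls 1 to 4. The groups did not overlap, and the lowest library labelled KO was above the highest control, which was control 4. The mean was 45.4 ± 3.78 CPM in the libraries labelled KO and 18.1 ± 8.01 CPM in the controls (SD, n = 4 each). The fold was 2.51, the log2 fold change 1.33 with an interval of 0.65 to 2.00, and the adjusted p 0.471 in edgeR's test. An exact permutation test gave p = 0.0286, the smallest that 4 against 4 libraries can give. Cdkn2c rose 3.28-fold in numbers 1 to 3 (log2 1.71, SE 0.17, adjusted p = 0.000969). With all libraries but control 4, where 0.192% of all genes were called higher, its adjusted p was 0.0374, and with the block over all 8 it was 0.0674. DESeq2 gave 0.0042, and over all alternatives the value ran from 3.01e-05 to 1, with a log2 fold change of 1.15 to 1.73.

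The other 2 INK4 genes stand next to each other on chromosome 4, Cdkn2a from 89274471 to 89294653 and Cdkn2b from 89306299 to 89311039. Cdkn2a yields both p16Ink4a and, from another first exon and reading frame, Arf, which inhibits Mdm2, and a count per gene does not separate them. It had 15.1, 9.18, 12.8 and 7.43 CPM in KO 1 to 4, against 6.61, 7.93, 7.05 and 17.1 CPM in controls 1 to 4. KO 1 to 3 lay above controls 1 to 3, while in pair 4 the order was the opposite, with the control the highest of all 8. Cdkn2a rose in numbers 1 to 3 (log2 fold change 0.78, SE 0.19, adjusted p = 0.0269), and with all libraries the value was 0.20 (SE 0.37). Cdkn2b, the INK4 gene best known for its response to TGF-beta, had 20.9, 16.8, 20.1 and 8.30 CPM in KO 1 to 4, against 11.7, 13.3, 15.5 and 12.5 CPM in controls 1 to 4. KO 1 to 3 lay above every control, and KO 4 was the lowest of all 8. Cdkn2b rose in numbers 1 to 3 by 0.52 on the log2 scale (SE 0.13, adjusted p = 0.0328), against 0.32 (SE 0.28) with all libraries.

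Cdkn1a encodes p21, the inhibitor through which p53 stops the cell cycle, and an element with 1 mismatch, printed above, stands before it. It had 220.2, 223, 216 and 200.2 CPM in KO 1 to 4, against 195, 174, 209.9 and 331 CPM in controls 1 to 4. The libraries labelled KO lay close together, and control 4 was far above the other 7. The log2 fold change was −0.08 with an interval of −0.55 to 0.39, and an exact permutation test gave p = 0.971. It was 0.19 in numbers 1 to 3 (SE 0.07, adjusted p = 0.12), and with the block there the adjusted p was 0.0474, in a range of 0.0474 to 1 over the alternatives. Exons of Cdkn1a overlap an opposite-strand gene over 7.7% of their length, and the labels do not state whether strand was used in counting. Cdkn1b, which encodes the related inhibitor p27, had 54.8 to 70.9 CPM in the libraries labelled KO and 55.7 to 64.2 CPM in the controls, and its log2 fold change of 0.03 (SE 0.11) turned negative in numbers 1 to 3 (−0.03).

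**Figure D3:**
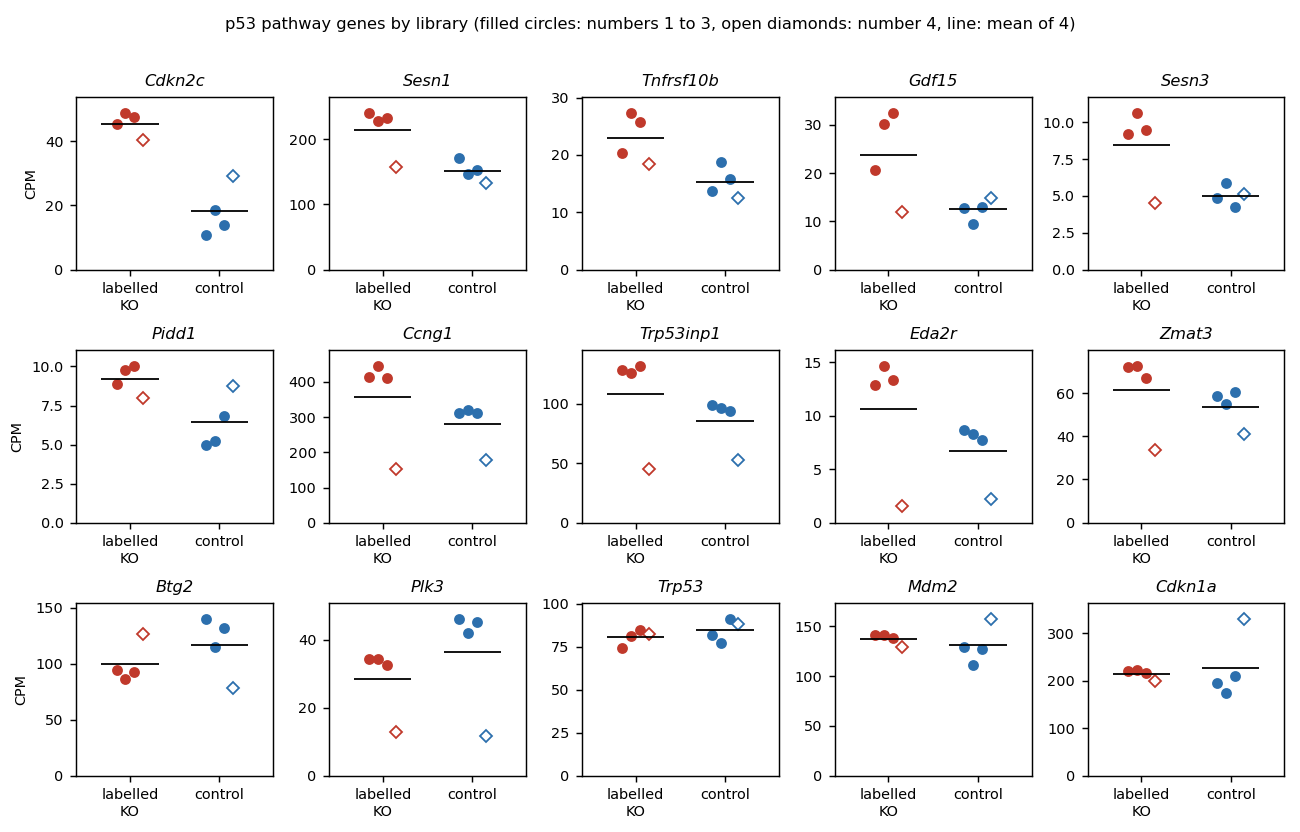
CPM of 15 of the genes in each library (y axis from 0), with libraries labelled KO in red and controls in blue. Circles are numbers 1 to 3, diamonds are number 4 and lines are means of 4. The red circles lie above the blue ones in Cdkn2c, Sesn1, Tnfrsf10b, Gdf15, Sesn3 and Ccng1 and below them in Btg2 and Plk3, and the diamonds often leave both clusters.

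Sesn1 and Sesn3 rose in numbers 1 to 3. Sestrins restrain the growth kinase mTORC1 and limit oxidative damage. Sesn1, on chromosome 10 from 41809935 to 41908424, had 241, 228, 232 and 157 CPM in KO 1 to 4, against 171, 147, 153 and 132 CPM in controls 1 to 4. KO 4 lay below control 1, so the groups overlapped by that library alone. The log2 fold change was 0.51 (SE 0.16, interval 0.13 to 0.88, adjusted p = 0.724), and an exact permutation test gave p = 0.0571. With the block Sesn1 rose by 0.49 (SE 0.08, adjusted p = 0.0412), and in numbers 1 to 3 by 0.58 (SE 0.07, adjusted p = 0.00128), which is 1.49-fold. Over the alternatives its adjusted p ran from 4.53e-05 to 1. Sesn3 had 9.18, 10.7, 9.50 and 4.52 CPM in KO 1 to 4, against 4.87, 5.85, 4.25 and 5.10 CPM in controls 1 to 4. It rests on 62 to 196 counts per library, and KO 4 lay among the controls. Sesn3 rose 1.96-fold in numbers 1 to 3 (adjusted p = 0.00522), and with all libraries its log2 fold change was 0.75 (SE 0.28, adjusted p = 0.885).

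A further 4 genes of arrest and stress rose in numbers 1 to 3, and pair 4 went the other way in each. Gdf15, a secreted stress cytokine of the TGF-beta family, had 20.7, 30.2, 32.6 and 11.9 CPM in KO 1 to 4, against 12.8, 9.50, 12.99 and 14.8 CPM in controls 1 to 4. Its fold in numbers 1 to 3 was 2.37 (adjusted p = 0.00555), the largest among the genes called there after Cdkn2c, and the log2 fold change with all libraries was 0.93 (SE 0.32, adjusted p = 0.775). Ccng1, which encodes cyclin G1, a partner of Mdm2, had 414, 446, 410.3 and 152 CPM in KO 1 to 4, against 313, 319, 313 and 177 CPM in controls 1 to 4. The libraries fell into 3 levels, with KO 1 to 3 on top, controls 1 to 3 in the middle and both number 4 libraries lowest. Ccng1 rose 1.35-fold in numbers 1 to 3 (adjusted p = 0.00265), and with all libraries the log2 fold change was 0.34 (SE 0.35). Trp53inp1, which helps p53 act and takes part in autophagy, showed the same layering, with 128, 126, 132 and 45.4 CPM in KO 1 to 4, against 98.8, 96.6, 93.5 and 52.7 CPM in controls 1 to 4. It rose 1.34-fold in numbers 1 to 3 (adjusted p = 0.00174). Zmat3, an RNA-binding protein, had 71.8, 72.7, 67.0 and 33.9 CPM in KO 1 to 4, against 58.8, 55.1, 60.3 and 40.9 CPM in controls 1 to 4, and rose by 0.28 on the log2 scale in numbers 1 to 3 (SE 0.06, adjusted p = 0.0187).

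Btg2 and Plk3 fell in numbers 1 to 3. Btg2, which slows proliferation and speeds the removal of mRNA tails, had 94.0, 86.2, 92.6 and 126 CPM in KO 1 to 4, against 140.3, 115, 132 and 78.7 CPM in controls 1 to 4. KO 4 was above 2 controls and control 4 was the lowest of all 8, so pair 4 reversed the order of the other pairs. Btg2 fell to 0.706 of the control level in numbers 1 to 3 (adjusted p = 0.0042), and with all libraries the log2 fold change was −0.22 (SE 0.21). Plk3, a stress-activated kinase of the polo family, had 34.2, 34.3, 32.5 and 12.8 CPM in KO 1 to 4, against 46.2, 42.0, 45.3 and 11.6 CPM in controls 1 to 4. Both number 4 libraries lay far below the rest. Plk3 fell to 0.758 of the control level in numbers 1 to 3 (adjusted p = 0.00666), against −0.35 (SE 0.47) on the log2 scale with all libraries. The related kinase Plk2 had 22.9 to 44.8 CPM in the libraries labelled KO and 23.3 to 38.8 CPM in the controls, with a log2 fold change of 0.21 (SE 0.24), and it passed only with the block in numbers 1 to 3 (0.26, adjusted p = 0.0273). Phlda3, which blocks the kinase Akt at the membrane, had 33.3 to 50.5 CPM in the libraries labelled KO and 42.2 to 55.5 CPM in the controls. It was lower in 4 of 4 pairs, with a log2 fold change of −0.16 (SE 0.17).

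Of the cell-death genes, the receptors Tnfrsf10b and Eda2r and the scaffold Pidd1 rose in numbers 1 to 3, and none of the 3 Bcl-2 family genes passed the test. Tnfrsf10b, the mouse TRAIL receptor, had 20.3, 27.4, 25.7 and 18.5 CPM in KO 1 to 4, against 13.7, 18.8, 15.9 and 12.4 CPM in controls 1 to 4. The groups touched only where KO 4 lay just below control 2, and the difference per pair was even, at 0.57, 0.54, 0.69 and 0.57 on the log2 scale. Its log2 fold change was 0.59 (SE 0.19, interval 0.16 to 1.03, adjusted p = 0.728), and an exact permutation test gave p = 0.0571. With the block Tnfrsf10b rose by 0.59 (SE 0.08, adjusted p = 0.0385), and in numbers 1 to 3 it rose 1.52-fold (adjusted p = 0.028). Over the alternatives its adjusted p ran from 0.000872 to 1.

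Eda2r, an X-linked receptor of the TNF family, had 12.8, 14.7, 13.3 and 1.53 CPM in KO 1 to 4, against 8.68, 8.32, 7.74 and 2.17 CPM in controls 1 to 4. It was at its lowest in both number 4 libraries, on counts of 21 to 270 per library, and rose 1.65-fold in numbers 1 to 3 (adjusted p = 0.00457). Pidd1, a scaffold that activates caspase-2, had 8.87, 9.78, 10.1 and 8.01 CPM in KO 1 to 4, against 4.97, 5.23, 6.81 and 8.74 CPM in controls 1 to 4. Control 4 alone reached the range of the libraries labelled KO. Pidd1 rose 1.69-fold in numbers 1 to 3 (adjusted p = 0.0148), and with all libraries its log2 fold change was 0.51 (SE 0.22). Fas, a death receptor, had 10.8, 9.35, 9.61 and 37.7 CPM in KO 1 to 4, against 8.10, 7.14, 9.32 and 34.1 CPM in controls 1 to 4. Number 4 was by far the highest in each group, and the label gave a log2 fold change of 0.20 (SE 0.68).

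Apaf1, the core of the apoptosome, was besides Cdkn2c the only one of the 34 genes whose groups did not overlap. Those 2 genes are 5.88% of the 34, where 2.32% of all genes were higher without overlap, and 0 were lower without overlap, against 1.27% of all genes. Apaf1 had 79.2, 77.7, 81.2 and 80.7 CPM in KO 1 to 4, against 77.4, 66.5, 68.2 and 70.8 CPM in controls 1 to 4. The gap was small, since control 1 lay just under KO 2. The log2 fold change was 0.17 (SE 0.09, interval −0.04 to 0.38, unadjusted p = 0.0921), and an exact permutation test gave p = 0.0286. In numbers 1 to 3 alone 20 of 34 genes were higher without overlap (58.8%, against 18.2% of all genes) and 3, Btg2, Plk3 and Rrm2b, were lower (8.82%, against 16.5%).

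The 3 Bcl-2 family genes that p53 induces had negative log2 fold changes with all libraries, within their errors. Bax, which opens the mitochondrial outer membrane and whose element is printed above, had 75.6, 75.9, 74.4 and 88.4 CPM in KO 1 to 4, against 80.7, 72.1, 92.9 and 107 CPM in controls 1 to 4. The groups overlapped, and number 4 was the highest in each. Exons of Bax overlap a same-strand gene, Gm45808, over 12.2% of their length, so its count is uncertain. The log2 fold change was −0.17 with an interval of −0.50 to 0.16, and −0.12 (SE 0.09) in numbers 1 to 3. Pmaip1, which encodes the BH3-only protein Noxa, had 14.1, 22.7, 15.3 and 8.52 CPM in KO 1 to 4, against 19.6, 25.9, 16.2 and 16.2 CPM in controls 1 to 4. It was lower in 4 of 4 pairs, but the groups overlapped and the log2 fold change of −0.36 (SE 0.30) did not pass the test. Bbc3, which encodes the BH3-only protein Puma, had 16.2 to 25.0 CPM in the libraries labelled KO and 15.2 to 29.6 CPM in the controls, with a log2 fold change of −0.12 (SE 0.25). Another 3 genes linked to cell death did not pass without the block. Aen, a p53-induced nuclease, had a log2 fold change of 0.06 (SE 0.15). Ei24, an endoplasmic reticulum protein, had 71.5 to 80.9 CPM in the libraries labelled KO and 67.1 to 82.0 CPM in the controls. Fdxr, the mitochondrial ferredoxin reductase, had 8.31 to 12.2 CPM in the libraries labelled KO and 6.56 to 17.9 CPM in the controls, with control 4 the highest, and 0.50 (SE 0.15, adjusted p = 0.06) in log2 fold change over numbers 1 to 3. With the block there Fdxr passed (0.49, adjusted p = 0.027).

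None of the 5 DNA repair genes passed the test with all libraries or in numbers 1 to 3. Ercc5, the nuclease XPG of nucleotide excision repair, had 30.1, 26.3, 24.7 and 20.8 CPM in KO 1 to 4, against 23.4, 23.2, 23.0 and 20.7 CPM in controls 1 to 4. Every library labelled KO was above the control of its number, though by little in pair 4, and the log2 fold change was 0.17 (unadjusted p = 0.243). Ddb2, which detects ultraviolet damage, had 4.40 to 8.67 CPM in the libraries labelled KO and 3.43 to 7.90 CPM in the controls, highest in number 4 of each group. Its exons overlap an opposite-strand gene, Acp2, over 23.8% of their length, so its count is uncertain. Xpc, the damage sensor of the same pathway, had 32.6 to 41.1 CPM in the libraries labelled KO and 26.0 to 43.6 CPM in the controls. Polk, a translesion polymerase, had 24.3 to 53.4 CPM in the libraries labelled KO and 23.6 to 66.2 CPM in the controls. Rrm2b, the p53-induced subunit of ribonucleotide reductase, had 12.96 to 22.4 CPM in the libraries labelled KO and 9.58 to 26.2 CPM in the controls. KO 1 to 3 lay below controls 1 to 3 for Rrm2b, while the log2 fold change there was −0.22 (SE 0.08, adjusted p = 0.114).

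Levels of different genes were compared per exon length. Ccng1 was the highest in both groups, with means over 4 libraries of 101 CPM per kilobase in the libraries labelled KO and 79.8 in the controls. Cdkn1a was second, with 60.5 CPM per kilobase in the libraries labelled KO and 64.1 in the controls. At the low end Sesn3 had 0.554 CPM per kilobase in the libraries labelled KO and 0.329 in the controls. The largest moves in rank among the 35 were those of Cdkn2c, 9 in the libraries labelled KO and 24 in the controls, and Gdf15, 13 in the libraries labelled KO and 23 in the controls. Cdkn2c had 16.9 CPM per kilobase in the libraries labelled KO and 6.74 in the controls. Trp53 held rank 8 and Mdm2 rank 7 in both.

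**Figure D4:**
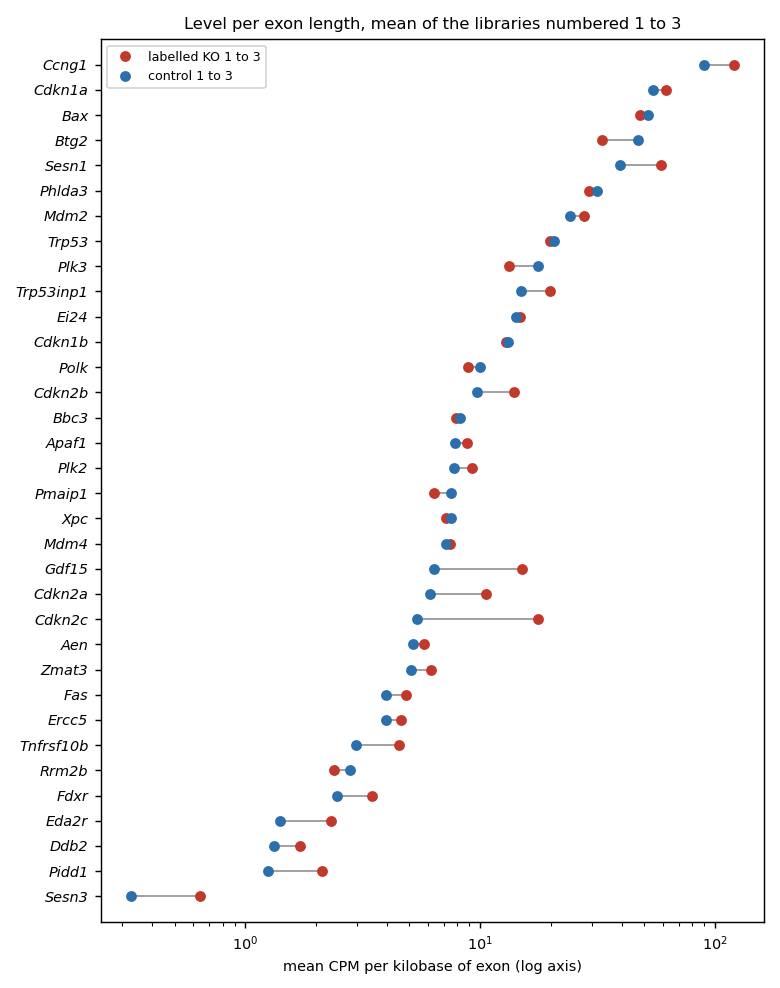
Mean CPM per kilobase of exon (x axis, log scale) of the 34 genes tested in numbers 1 to 3, with libraries labelled KO in red, controls in blue and grey lines joining them. Ccng1 is highest, with 121 in the libraries labelled KO and 89.7 in the controls, and Cdkn2c has the longest line, with 17.5 in the libraries labelled KO and 5.37 in the controls.

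The libraries numbered 4 set many genes apart whatever the label, and the p53 and arrest genes no more often than genes at large. Both lay below the other 6 libraries in 11 of 34 genes (32.4%, against 33.8% of all genes) and above them in 5 (14.7%, against 34.2%). The mean of both over the mean of the other 6 was 0.169 for Eda2r, 0.312 for Plk3, 0.436 for Trp53inp1 and 0.445 for Ccng1. Polk, Rrm2b, Zmat3, Plk2, Xpc, Mdm4 and Ercc5 were the others below, at 0.457 to 0.825. Above the other libraries were Fas at 3.97, Ddb2 at 2.00, Fdxr at 1.81, Bbc3 at 1.59 and Ei24 at 1.15. Osteoclast marker transcripts were high in the same 2 libraries, as given above, and their part in these values was not tested.

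**Figure D5:**
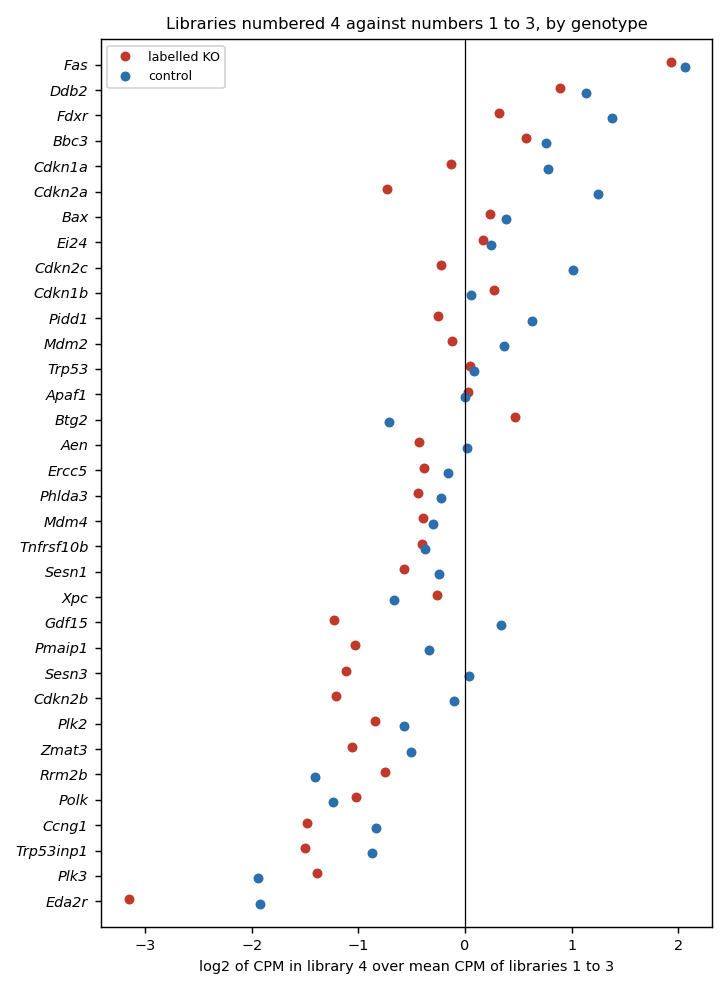
Log2 of the CPM in library 4 over the mean of libraries 1 to 3 of the same label (x axis) for the 34 genes tested, labelled KO in red and control in blue. Fas lies far to the right, with 1.93 in KO and 2.06 in control, and Eda2r far to the left, with −3.15 in KO and −1.93 in control, while Cdkn2a, Cdkn1a and Btg2 have their 2 points on opposite sides of 0.

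Genes that drive the cell cycle also had mostly positive values. The 24 proliferation genes were higher on average in the libraries labelled KO for 24 of 24, by a median of 1.01 on the log2 scale. In edgeR's test 21 had an unadjusted p under 0.05 and 0 passed the adjusted threshold. Over all genes 46.7% had a positive value, 3.19% were higher at that unadjusted level and 0% passed the adjusted threshold. DESeq2 called 10 (against 1.05% of all genes), edgeR with the block 4 (against 1.31%) and edgeR in numbers 1 to 3 called 19, against 7.78% of all genes there. The median in pairs 1 to 4 was 1.64, 0.89, 1.20 and 0.26, so pair 4 was the smallest here too. Mki67, the proliferation marker Ki-67, had 451, 477, 451 and 189 CPM in KO 1 to 4, against 99.6, 162, 119 and 129 CPM in controls 1 to 4, with no overlap. The 3 others of smallest unadjusted p were Kif23, Kif11 and Prc1, motors and a crosslinker of the mitotic spindle, with log2 fold changes of 1.24, 1.48 and 1.05. These values differed in the same libraries as Cdkn2c, Sesn1 and Tnfrsf10b, and their part in those results was not tested.

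Among 28 CDK, cyclin, RB and E2F genes the positive log2 fold changes numbered 22 (78.6%, against 46.7% of all genes), with a median of 0.25. In edgeR's test with all libraries 0 passed, against 0% of all genes. At an unadjusted p under 0.05 there were 8, all higher, against 3.19% of all genes higher. DESeq2 called 2 (against 1.05% of all genes higher), and edgeR with the block called 1, Rbl1 (against 1.31%). In numbers 1 to 3, 8 of 28 rose (28.6%, against 7.78% of all genes) and 0 fell (against 6.29%). Cdc25b, a phosphatase that activates CDKs, had 53.8, 44.1, 53.8 and 45.9 CPM in KO 1 to 4, against 15.3, 16.3, 18.6 and 34.7 CPM in controls 1 to 4. That is the pattern of Cdkn2c, with every library labelled KO above every control and control 4 the highest control, and the log2 fold change was 1.22 (SE 0.27). Cyclin A2 (Ccna2), the E2F repressor E2f8 and the mitotic kinase Cdk1 had log2 fold changes of 1.22, 0.95 and 0.85.

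The p53 pathway beyond the 35 genes is given by 2 lists. Of 20 further p53 targets, 0 passed in edgeR's test with all libraries, against 0% of all genes, and 0 by DESeq2, against 1.45%. At an unadjusted p under 0.05 in edgeR's test there were 4, against 4.92% of all genes. The log2 fold change was positive in 11 (55%, against 46.7% of all genes), and the median was 0.03, against −0.02. In numbers 1 to 3, 6 rose (Gtse1, Psrc1, Slc19a2, Ephx1, Sesn2 and Steap3), against 7.78% of all genes, and 0 fell, against 6.29%. With the block there 7 rose and 1, Tigar, fell, against 12.3% and 11.9% of all genes. Gtse1 and Psrc1 encode proteins of microtubules and the spindle, and their log2 fold changes there were 1.21 (SE 0.26) and 1.13 (SE 0.13), while Sesn2, the third sestrin, had 0.35 (SE 0.06, adjusted p = 0.00881). Ckap2, another spindle protein, had 1.05 (SE 0.33) with all libraries. Tigar, a phosphatase that diverts sugar from glycolysis, had 10.3, 10.2, 11.1 and 9.18 CPM in KO 1 to 4, against 12.9, 13.2, 14.7 and 11.7 CPM in controls 1 to 4, lower without overlap (log2 fold change −0.36, SE 0.14, unadjusted p = 0.0286). Its adjusted p was 0.0595 in numbers 1 to 3 and 0.0338 with the block there. Of 19 regulators of p53, 0 passed with all libraries, against 0% of all genes in edgeR's test. At an unadjusted p under 0.05 there were 0 in edgeR's test, against 4.92% of all genes, and 0 in DESeq2. By limma-voom there was 1, against 5.23% of all genes. In numbers 1 to 3 Chek2, a kinase that phosphorylates p53 after DNA breaks, and Trp53bp1, which binds broken chromatin, rose by 0.72 and 0.29 on the log2 scale (adjusted p = 0.000758 and 0.0157). These 2 of 19 are 10.5%, near the 7.78% of all genes called higher. With the block there 4 of 19 (21.1%) were called, all higher. Of all genes 12.3% were called higher there and 24.2% in either direction.

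Other transcripts also differed with the label in numbers 1 to 3. Of 10 neutrophil markers, 3 had enough counts to test, and the sum was 274 to 300.1 CPM in KO 1 to 3, against 431 to 525 CPM in controls 1 to 3. That order comes from Mmp8, with 116 to 125 CPM in KO 1 to 3, against 314 to 378 CPM in controls 1 to 3, while Csf3r had 147 to 180 CPM in KO 1 to 3, against 114 to 147 CPM in controls 1 to 3. The defining genes Ly6g, Elane and Mpo were at or near 0 in every library. Markers of T and natural killer cells summed to 4.17 to 7.75 CPM in KO 1 to 3, against 0.641 to 2.30 CPM in controls 1 to 3, nearly all of it Cd4, with Cd3e and Cd3d at 0 in these libraries and 2 of 5 at 0 in all libraries. The part of these transcripts in the results for numbers 1 to 3 was not tested. Smooth muscle and pericyte markers summed to 967 to 2278 CPM in the libraries labelled KO and to 423 to 3924 CPM in the controls. For chondrocyte markers the sums were 238 to 970.0 CPM in the libraries labelled KO and 46.0 to 1309 CPM in the controls, and for endothelial markers, 1 of 5 at 0 throughout, they were 7.39 to 33.3 CPM in the libraries labelled KO and 7.94 to 24.3 CPM in the controls. B cell markers, 2 of 5 at 0 throughout, summed to 0.556 to 1.41 CPM in KO 1 to 3, against 0.116 to 0.476 CPM in controls 1 to 3, with 9.91 CPM in KO 4 and 9.72 CPM in control 4. Erythroid markers, 5 of 6 at 0 throughout, summed to at most 0.543 CPM in the libraries labelled KO and 0.582 CPM in the controls.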

How the data were processed

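Polyadenylated RNA of 8 calvarial cell samples was sequenced. The authors deposited whole-number read counts per gene symbol. Alignment and counting tools named in the submitters' processing notes are STAR 2.7.11b and featureCounts 2, with build mm10 (GRCm38). The annotation counted, the use of strand and the treatment of reads with several alignments are not given in the sources used here. Groups came from the sample titles. Libraries within a group differed beyond sampling noise, and each counted as 1 sample. Chi-square per degree of freedom was 8.56 to 44.7 among numbers 1 to 3 and 224 to 307 between these and number 4. Such differences do not show whether libraries came from separate animals or cultures.

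From the deposited counts edgeR 4.0.16 in R 4.3.3 computed CPM with TMM factors, after filterByExpr left 12837 genes. A model of genotype was fitted over all genes and tested by quasi-likelihood F with robust dispersions, with Benjamini-Hochberg adjustment over all of them and a threshold of 0.05. The SE of a log2 fold change is its size over the root of F. Single genes were also compared by an exact permutation test of log2 CPM (prior count 2). The code was tested on simulated counts. Median SE was 0.254 with 8 libraries and 0.107 in numbers 1 to 3, and intervals cover 95%.

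Same-numbered libraries deviated together from their group means, with r of 0.161 to 0.376 in numbers 1 to 3, where unlike numbers gave −0.255 to −0.0234. Over 8 libraries same numbers gave 0.46 to 0.829 and unlike numbers −0.757 to 0.572, so those ranges overlapped. There KO 1 went slightly more with control 2 (0.511) than with control 1 (0.46). The numbers were therefore used as pairs in the fits with a block and in the differences per pair, on these correlations alone, since no label states a pairing. All other fits and the permutation tests are unpaired.

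The 35 genes, the context and marker lists and the naming rule were chosen with earlier results of these data known. Every gene of the 35 is named. Values per library are given for Trp53, Mdm2, Cdkn1a, each gene past the threshold with all libraries, with the block or in numbers 1 to 3, and the 10 of smallest p. Context lists give up to 4 genes of smallest p, and the genes named there for numbers 1 to 3 were chosen after their values were seen. Some genes of the apoptosis list are not reported here. Alternatives were DESeq2 1.42.0, limma 3.58.1 voom, other scalings, no filter, the block, numbers 1 to 3 and each library left out. Coordinates and exon lengths are from GENCODE M21 (GRCm38).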

Additional observations from a re-analysis of the deposited data

Results flagged for a closer look

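In a group of 4 libraries, a value was noted where its gap to the nearest other library took up nearly the whole range of the group. Of 92 such groups (the 34 tested genes, Sphk2, Mki67 and the 10 marker sums, by group) 32 had such a value, where chance gives about 5%, and all 32 were in libraries numbered 4. Among the p53 and arrest genes there were 21 in 14 genes. The screen was not run over all genes, so whether this count is unusual was not tested. Both libraries numbered 4 lay below the others in 32.4% of the p53 and arrest genes, against 33.8% of all genes. They lay above the others in 14.7%, against 34.2% of all genes.

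In KO 4 the low values were those of Trp53inp1 (45.4 CPM), Ccng1 (152 CPM), Sesn1 (157 CPM), Eda2r (1.53 CPM), Zmat3 (33.9 CPM), Plk3 (12.8 CPM) and Rrm2b (12.96 CPM). The high values were those of Bax (88.4 CPM), Fas (37.7 CPM), Ei24 (80.9 CPM) and Ddb2 (8.67 CPM). For Sesn1, one of the genes that rose with the block, KO 1 to 3 had 228 to 241 CPM.

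In control 4 the low values were those of Trp53inp1 (52.7 CPM), Ccng1 (177 CPM), Eda2r (2.17 CPM), Plk3 (11.6 CPM), Rrm2b (9.58 CPM) and Ercc5 (20.7 CPM). Cdkn2a (17.1 CPM), Fas (34.1 CPM), Ddb2 (7.90 CPM) and Fdxr (17.9 CPM) were high there. Trp53inp1, Ccng1, Fas, Eda2r, Plk3, Rrm2b and Ddb2 stood out in the same direction in both libraries numbered 4.

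Outside these genes, KO 4 stood out with 131 CPM of Sphk2, 189 CPM of Mki67, 50064.5 CPM of macrophage markers and 6748 CPM of osteoclast markers. It also stood out with 9.91 CPM of B cell, 26.1 CPM of T and natural killer cell and 33.3 CPM of endothelial markers. The macrophage markers did not all go the same way in KO 4. Lyz2, the most abundant, had 34460 CPM there, against 16416 to 18887 CPM in KO 1 to 3, and Csf1r had 5044 CPM, against 3549 to 3937 CPM. Mrc1 was lower, with 327 CPM against 1431 to 1588 CPM, as was C1qa, with 1109 CPM against 1236 to 1281 CPM. Control 4 stood out with 10222 CPM of osteoclast, 9.72 CPM of B cell, 17.1 CPM of T and natural killer cell and 24.3 CPM of endothelial markers.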

How the results depend on the processing

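With all 8 libraries 0 genes were called in either direction. Over all genes the calls higher and lower in the libraries labelled KO were 168 and 151 with the replicate block that pairs libraries by number, 127 and 49 with DESeq2, 1005 and 812 in numbers 1 to 3, and 1593 and 1539 with the block there. Leaving out 1 library without a block gave 0 to 25 higher and 0 to 13 lower, the most without control 4 and then without KO 4. The block without number 1, 2 or 3 called 0 in each direction. Of the p53 and arrest genes 2 were called higher with the block, 1 with DESeq2, 12 in numbers 1 to 3 and 16 with the block there, and 0 to 1 with a library left out (Cdkn2c, without control 4). Called lower were 2 in numbers 1 to 3, with or without the block, and 0 otherwise. Their median log2 fold change, 0.14 with all libraries, was positive in every alternative, with 0.061 (without control 1) to 0.143 when a library or pair 1, 2 or 3 was left out. Other scalings turned no sign and moved the median of all genes by at most 0.012 (log2). Of 646 alternative values of single genes 579 kept their sign and side of the threshold, 35 passed it and 32 changed sign, in 14 genes. Without pair 4 the changed signs were Cdkn1a 0.19 (0.19 with the block), Cdkn1b −0.028 (−0.028 with the block) and Xpc −0.066 (−0.065 with the block), and the Cdkn1a value with the block passed the threshold. With the block and 1 pair left out, the values of changed sign were Mdm2 −0.0066, Mdm4 −0.016, Cdkn1b −0.025, Cdkn2a −0.033, Aen −0.094 and Rrm2b 0.019. With 1 library left out the ranges were −0.037 to 0.13 for Mdm4, −0.18 to 0.15 for Cdkn1a, −0.042 to 0.082 for Cdkn1b, −0.29 to 0.10 for Bbc3 and −0.56 to 1.03 for Fas. They were −0.047 to 0.15 for Aen, −0.38 to 0.020 for Rrm2b, −0.0079 to 0.10 for Ei24, −0.0013 to 0.64 for Ddb2, −0.13 to 0.089 for Xpc, −0.37 to 0.059 for Polk and −0.044 to 0.58 for Fdxr. The median of the p53 regulators ran from −0.048 to 0.073 and that of the other apoptosis genes from −0.074 to 0.14. The causes were not tested. At this depth Perp, with at most 6 counts, could not be compared, and Sesn3 and Eda2r rest on as few as 62 and 21 counts in a library. Numbers 1 to 3 hold 3 libraries a group, and no library was left out within them.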

Other observations

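Of 14 tested apoptosis genes outside the p53 and arrest list, 2 rose and 2 fell in the libraries labelled KO in numbers 1 to 3. Together they are 28.6%, against 14.1% of all genes called there and 7.78% called higher. Bcl2 and Bcl2l1, which protect the mitochondrial membrane, fell by 0.85 (SE 0.12, adjusted p = 0.00251) and by 0.37 (SE 0.07, adjusted p = 0.0111) on the log2 scale, where 6.29% of all genes were called lower. With all 8 libraries neither passed the test in edgeR or DESeq2. Bcl2 had 10.4, 12.7, 10.4 and 2.69 CPM in KO 1 to 4, against 21.4, 18.0, 21.0 and 1.26 CPM in controls 1 to 4, so it was lowest in both libraries numbered 4 and pair 4 had the opposite order. Bcl2l1 had 52.5, 62.4, 59.2 and 21.6 CPM in KO 1 to 4, against 76.3, 73.3, 75.3 and 16.2 CPM in controls 1 to 4, with the same layering. These genes were named after their values were seen.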
